A study of Homo sapiens with 6 samples.

Results

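The genes described here encode the parts of epithelial cell-cell junctions and their regulators, and their transcripts were followed after siRNA against GNE in Capan-1, a cell line from a human pancreatic cancer. The set lists 39 genes by function, in adherens junctions, desmosomes, tight junctions, epithelial splicing and grainyhead transcription factors. Of these, 36 had an array probe set assigned to that gene alone, out of 19775 genes on the array with such a probe set, and 32 had a mean signal high enough to test, out of 10731 genes. Each gene was represented by its probe set with the highest mean over the arrays. The remaining 3 genes were CTNND1 and ESRP2, whose 4 probe sets and 1 probe set are annotated to more than one gene, and F11R, and they are not analysed here.

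There were 6 Affymetrix arrays, 3 of cells transfected with siRNA against GNE (siGNE) and 3 of cells transfected with a control that the labels call allStar. All cells received 2 transfections at an interval of 48 h, were collected 72 h after the second, and gave 300 ng of total RNA for labelling. Arrays carry the numbers 1 to 3 in each group, and same-numbered arrays were treated as a pair. Neither the number of siRNAs nor the origin of the arrays in separate cultures is given in the labels, so the spread behind each p-value is that of these samples and may be technical. Values are log2 expression as deposited, with array medians from 2.96 to 3.02, and a value near 3 lies close to background.

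Epithelial cells are held together by adherens junctions, in which cadherins reach across the gap between cells and bind catenins inside, and by desmosomes, in which desmogleins and desmocollins bind plakoglobin, plakophilins and desmoplakin, which anchor keratin filaments. Tight junctions seal the space between cells with claudins and occludin, which are held by scaffold proteins of the ZO family. GNE starts the synthesis of sialic acid, the sugar that ends many glycan chains of cell surface proteins, cadherins and other adhesion proteins among them. The arrays measured transcripts only, not proteins, glycans or junctions.

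The GNE probe set read 11.12, 11.47 and 10.86 on control arrays 1 to 3 and 8.39, 9.86 and 9.57 on siGNE arrays 1 to 3. Every siGNE array lay below every control array, and pair 1, with 15.0% of its control level, had the deepest reduction, against 32.8% and 40.9%. The difference was -1.88 (SE 0.29, limma adjusted p = 0.0348 with the replicate block, 0.131 without it).

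Markers of the labelled cell type were high. All 8 ductal epithelial markers, among them the keratins KRT7, KRT8, KRT18 and KRT19, were measured above the testing limit, and their mean level ran from 12.87 to 13.16 on control arrays and from 12.99 to 13.23 on siGNE arrays. None of them passed in limma with the block, where 4.11% of all tested genes were called higher and 5.79% lower. The 6 endothelial markers had mean levels from 2.76 to 2.80 on all arrays. Of the 7 fibroblast markers, 6 were at background, while COL1A1, a fibrillar collagen gene, rose, with 7.47 to 8.80 in control cells and 8.17 to 9.22 in siGNE cells (difference 0.71, limma adjusted p = 0.0441 with the replicate block, 0.512 without it). The mean level of the 7 was 3.42 to 3.62 and 3.52 to 3.70, and whether other cells had a part in any result was not tested. Of 4 measured leukocyte markers LYZ alone was above the limit, at 10.16 to 11.59.

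Of the 36 junction genes with a probe set, 4 were at background on every array. These were the intestinal cadherin CDH17, at 1.99 to 2.06, the desmosomal cadherins DSC3 (2.60 to 2.71) and DSG3 (2.39 to 2.45), and the stomach-type claudin CLDN18 (2.74 to 2.79). They were not tested. The 32 others are the tested genes of the following paragraphs, and differences are siGNE minus control on the log2 scale, averaged over the 3 pairs.

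Most junction transcripts differed little between siGNE and control cells. Of the 32 tested junction genes 1 rose, the claudin gene CLDN23, and 0 fell in limma with the replicate block at an adjusted p under 0.05, where 4.11% of all 10731 tested genes were called higher and 5.79% lower. At an unadjusted p under 0.05 the counts were 6 higher and 3 lower, beside 13.7% and 18.8% of all tested genes. Without the block 0 junction genes passed in limma, and 3 genes in all did (0.0280%). At an unadjusted p under 0.05 that fit had 4 junction genes, beside 16.3% of all tested genes. Apart from CLDN23, differences ran from -0.44 to 0.41, and 1 of 32 exceeded 0.5 in either direction, against 14.0% of all tested genes. The median difference was 0.03 (0.14, 0.06 and 0.04 in pairs 1, 2 and 3) beside -0.02 over all tested genes, and the median size of the difference was 0.14 beside 0.19.

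**Figure D1:**
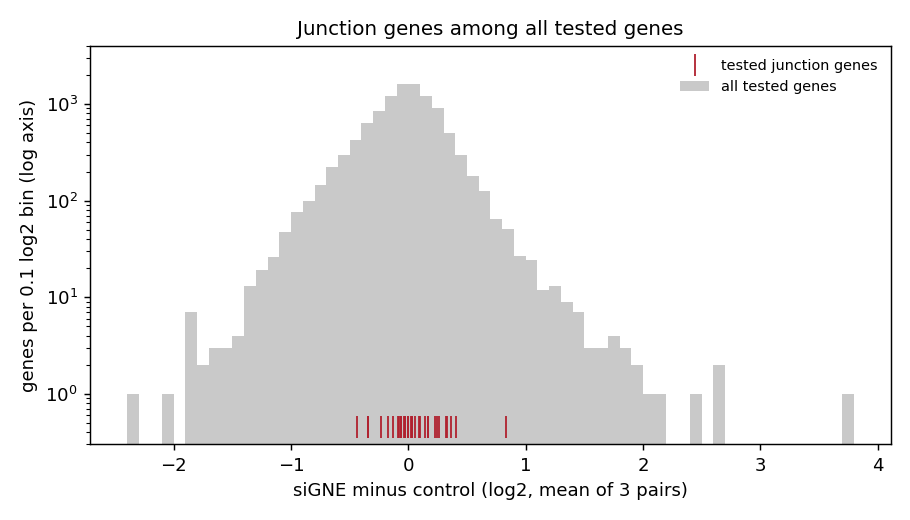
Distribution of the difference between siGNE and control cells (x axis, log2, mean of 3 pairs) over 10731 tested genes (grey bars, genes per bin on a log axis), with the 32 tested junction genes as red marks. The junction genes lie between -0.44 and 0.41 except CLDN23 at 0.83, while all genes reach from -2.34 to 3.75.

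The fit with the block also gave an interval for each difference, on the probe set used. These intervals rest on the spread between the 3 pairs, which may be technical. In limma each spread is also drawn toward a value shared by all tested probe sets. The intervals do not bound the change of the gene. Without the block the SE of CLDN2, for example, was 0.43 rather than 0.11, and other probe sets of a gene can differ more. The 95% interval of the difference (limma, with the block) lay wholly within 1 log2 unit of 0 for 31 of the 32 tested junction genes (91.7% of all tested genes) and within 0.5 for 23 (54.2%). Its median half-width was 0.25. In all 3 pairs 14 were higher and 6 lower, where 27.0% and 30.9% of all tested genes were, and 12 differed in direction between pairs. The siGNE arrays lay wholly above the control arrays for 6 junction genes (CLDN1, CLDN12, CLDN23, DSC2, DSP and PARD3), beside 9.42% of all tested genes, and wholly below for 1, PKP3, beside 13.9%.

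**Figure D2:**
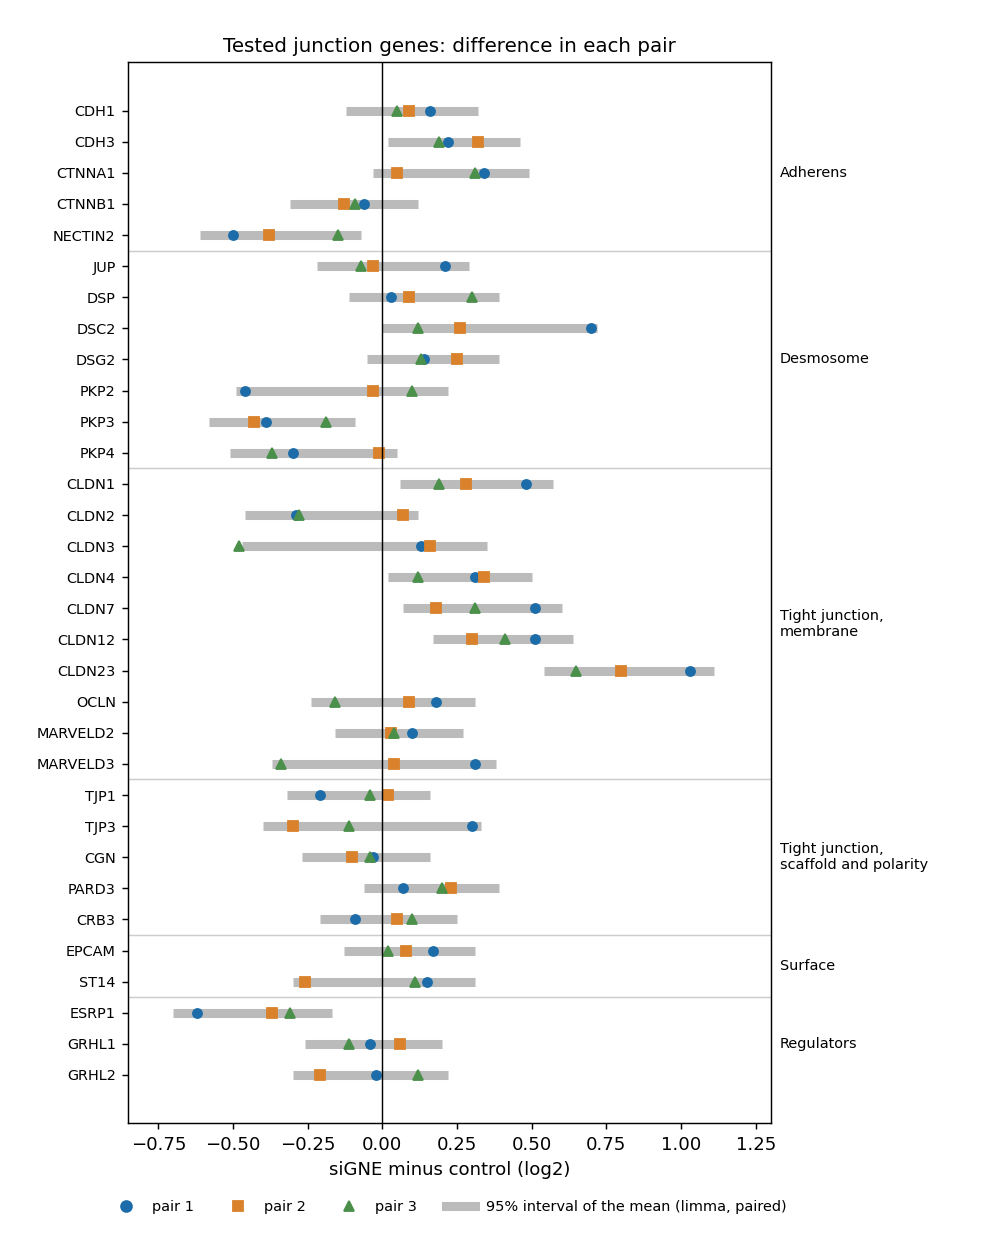
Difference between siGNE and control (x axis, log2) for each of the 32 tested junction genes, grouped by role. Points are the 3 pairs and grey bars the 95% interval of the mean difference from limma with the replicate block. The interval of CLDN23 runs from 0.54 to 1.11, those of ESRP1, PKP3 and NECTIN2 lie below 0, and those of CDH3, CLDN1, CLDN4, CLDN7 and CLDN12 lie above 0 although only CLDN23 passed after adjustment.

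Claudins are the membrane proteins that set what passes through a tight junction. Of the 7 tested claudin genes of the set 5 were higher in all 3 pairs (27.0% of all tested genes were), 1 of which passed (4.11% of all tested genes were called higher), and the median difference of the 7 was 0.32 beside -0.02 over all tested genes. The tested claudins of the further list described at the end were not higher in this way, with -1.60 for CLDN11, which fell, -0.03 for CLDN19 and 0.08 for CLDN9, the last not higher in every pair. CLDN15 of that list was too low to test, with means of 3.74 and 4.15 in control and siGNE cells. It was higher in every pair (0.59, 0.20 and 0.44), without overlap. The remaining untested claudins of that list, at background, differed by -0.07 to 0.01. Both lists were chosen with earlier results of these data known. The counts therefore describe the listed claudins and are no test of claudins as a group. CLDN23 read 7.01, 6.83 and 6.37 in control cells and 8.04, 7.62 and 7.02 in siGNE cells. The siGNE arrays were all above the control arrays, though siGNE array 3 was higher than control array 1 by only a little. CLDN23 rose by 0.83 (SE 0.11), which is 1.77-fold (limma adjusted p = 0.0285 with the replicate block, 0.289 without it). The pairs gave 1.03, 0.80 and 0.65, in the same order as the depth of the GNE reduction, a relation that 3 pairs cannot test. That order was not particular to CLDN23. CLDN1 (0.48, 0.28 and 0.19) and DSC2 (0.70, 0.26 and 0.12) had it too, while CLDN7 (0.51, 0.18 and 0.31) and CLDN12 (0.51, 0.30 and 0.41) did not.

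That rise rests on 1 probe set. Another CLDN23 probe set, with a mean of 5.26, gave 0.19 (limma adjusted p = 0.422 with the block), from 0.56, -0.03 and 0.04 in the pairs, and one more was at background with a mean of 2.30. Averaging all CLDN23 probe sets gave 0.34 (limma adjusted p = 0.0585). With pair 1, 2 or 3 left out the difference was 0.72, 0.84 and 0.91 and did not pass in limma (adjusted p = 0.0803, 0.125 and 0.144), in fits with 1 residual degree of freedom in which 0 genes passed at all.

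CLDN12, a claudin that lacks the usual anchor for scaffold proteins, came next. It read 10.04, 10.13 and 9.94 in control cells and 10.55, 10.43 and 10.35 in siGNE cells, so the groups did not overlap. The difference of 0.41 (SE 0.09, 95% interval 0.17 to 0.64) had a limma adjusted p of 0.0574 with the block and of 0.216 without it, and thus did not pass. It passed in limma with the block when genes with a mean under 6 were left out (adjusted p = 0.0344), with a trended variance (0.0329), or with a fit on 1 mean value per gene (0.0288). In that last fit its own values were the same, since CLDN12 has 1 probe set. It did not pass in limma with quantile normalization (adjusted p = 0.0507), median centring (0.0579), a robust variance (0.0614), no filter (0.183) or any pair left out.

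CLDN1, the claudin that the skin barrier depends on, read 10.94, 11.12 and 11.17 in control cells and 11.42, 11.40 and 11.36 in siGNE cells. The siGNE values lay above all control values and were close to each other. Its difference was 0.32 (limma adjusted p = 0.107 with the block), and its second probe set gave 0.33 (limma adjusted p = 0.170). CLDN7, which binds EPCAM in the lateral membrane, read 11.36, 11.18 and 11.44 against 11.87, 11.36 and 11.75, and CLDN4, a sealing claudin of ducts, 9.96, 9.92 and 10.57 against 10.27, 10.26 and 10.69. Both were higher in every pair while the groups overlapped, with differences of 0.33 and 0.26 (limma adjusted p = 0.105 and 0.142 with the block).

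CLDN2 and CLDN3 were mixed. CLDN2, which forms channels for small cations, read 7.84, 8.31 and 9.08 in control cells and 7.54, 8.38 and 8.80 in siGNE cells (difference -0.17, 95% interval -0.46 to 0.12). CLDN3 read 7.99, 8.0 and 8.93 against 8.12, 8.16 and 8.45 (difference -0.06, 95% interval -0.47 to 0.35), so pair 3 was lower and pairs 1 and 2 were higher. Neither passed, and neither had the same direction in all pairs.

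**Figure D3:**
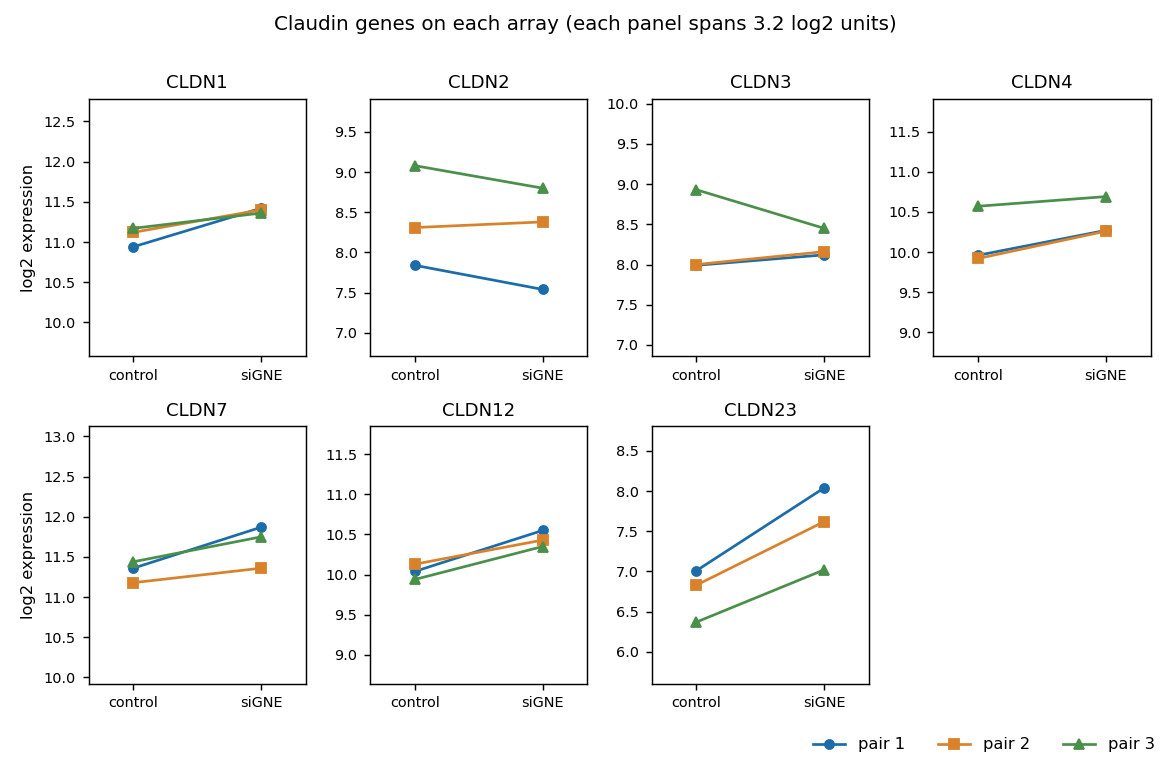
Log2 expression (y axis) of the 7 tested claudin genes on control and siGNE arrays, with a line joining the arrays of each pair. All lines go up for CLDN1, CLDN4, CLDN7, CLDN12 and CLDN23, by 0.65 to 1.03 in CLDN23 and by 0.12 to 0.51 in the others, and the lines of CLDN2 and CLDN3 differ in direction.

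The MARVEL proteins share the tight junction strand with claudins. Occludin (OCLN) read 10.40, 10.64 and 10.71 in control cells and 10.58, 10.72 and 10.54 in siGNE cells, a difference of 0.03 (95% interval -0.24 to 0.31), and its other tested probe sets gave -0.01 and 0.26. Tricellulin (MARVELD2), which sits where 3 cells meet, read 10.21, 10.18 and 10.10 against 10.31, 10.21 and 10.14, a difference of 0.06 (95% interval -0.16 to 0.27). MARVELD3 differed by 0.31, 0.04 and -0.34 in the pairs, and its mean difference of 0.00 turned to -0.0052 when arrays were centred on their medians.

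Inside the cell, the tight junction scaffolds TJP1 (ZO-1), TJP3 (ZO-3) and cingulin (CGN), which link the strands to actin, differed by -0.08, -0.03 and -0.06, with 95% intervals of -0.32 to 0.16, -0.40 to 0.33 and -0.27 to 0.16. A second CGN probe set gave -0.23, lower in every pair (limma adjusted p = 0.139 with the block). The polarity proteins PARD3 and CRB3 help to place the tight junction at the apical end of the lateral membrane. PARD3 read 8.48, 8.35 and 8.41 in control cells and 8.55, 8.58 and 8.61 in siGNE cells, all siGNE values being higher (difference 0.17, limma adjusted p = 0.266 with the block). Its other tested probe sets gave 0.25, 0.24 and -0.14, the last in the opposite direction. CRB3 read 8.49, 8.40 and 8.42 against 8.40, 8.44 and 8.52 (difference 0.02, 95% interval -0.21 to 0.25). None of these 5 genes passed in limma with the block, where 4.11% of all tested genes were called higher and 5.79% lower. Of the 5, 0 had an unadjusted p under 0.05, where 13.7% of all tested genes had one in the higher and 18.8% in the lower direction.

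Junction genes are known targets of transcription factors that read short letters before the gene start. Repressors of the SNAI and ZEB families bind the E-box CACCTG, and grainyhead factors bind sites close to AACCNGTT. The 250 bases before the start were available from RefSeq (GRCh38.p14) for 21 of the 32 tested genes, in 34 windows since some genes have several starts, and both strands were searched. The E-box was present in 10 of the 34 windows (29.4%, 9 genes), beside 17.5% of all 35116 windows, and the grainyhead letters in 1 (2.94%), beside 1.49%. CDH1, CDH3, CLDN23, EPCAM, ESRP1, GRHL2, MARVELD3, PARD3, PKP2, PKP3 and ST14 had no entry. The windows of CRB3, which held the most E-boxes, of the desmosomal cadherin DSG2, with 2, and of CGN, with the grainyhead letters, are shown as examples of the searched letters. CLDN7 held 4 E-boxes, and DSP and JUP held 2 like DSG2, and these are not printed. Capitals mark the matches (CAGGTG is the E-box on the other strand, and the CGN match is also on the other strand). Neither motif holds the other, and the plus strand is printed, with the positions chr19:6464021-6464270, chr18:31497927-31498176 and chr1:151511137-151511386.
CRB3: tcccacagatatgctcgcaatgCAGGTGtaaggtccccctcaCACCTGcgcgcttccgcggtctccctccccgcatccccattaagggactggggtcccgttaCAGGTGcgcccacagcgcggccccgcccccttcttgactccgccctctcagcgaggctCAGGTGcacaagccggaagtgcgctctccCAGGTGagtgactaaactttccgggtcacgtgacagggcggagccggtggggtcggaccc
DSG2: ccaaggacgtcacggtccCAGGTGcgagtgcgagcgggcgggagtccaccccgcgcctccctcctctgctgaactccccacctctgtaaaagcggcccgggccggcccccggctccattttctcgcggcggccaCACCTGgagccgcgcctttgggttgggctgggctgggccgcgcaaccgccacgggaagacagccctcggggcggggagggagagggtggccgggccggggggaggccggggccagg
CGN: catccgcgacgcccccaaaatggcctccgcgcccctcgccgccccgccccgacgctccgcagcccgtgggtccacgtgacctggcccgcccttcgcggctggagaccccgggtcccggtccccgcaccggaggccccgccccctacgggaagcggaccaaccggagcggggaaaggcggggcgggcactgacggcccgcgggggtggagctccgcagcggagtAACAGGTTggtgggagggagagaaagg
A match describes the letters only and shows no binding. The 5 E-boxes of the CRB3 window stand beside a difference of 0.02, the 2 of DSG2 beside 0.17, and the grainyhead letters of CGN beside -0.06, and none of these 3 genes passed in limma. The 4 E-boxes of CLDN7 stand beside 0.33 (95% interval 0.07 to 0.60), the 2 of DSP beside 0.14 and the 2 of JUP beside 0.03. These did not pass either, and whether matches go with differences was not tested.

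The factors themselves were tested or looked up as well. Of 6 genes looked up from the SNAI, ZEB and TWIST families, which repress epithelial genes, ZEB1, ZEB2, SNAI1, TWIST1 and TWIST2 were at background, none above 2.92 on any array. SNAI2 was clearly measured, at 10.16, 9.55 and 8.80 in control cells and 9.33, 9.37 and 8.53 in siGNE cells. It was lower in every pair (-0.83, -0.18 and -0.27), while the groups overlapped (difference -0.43, limma adjusted p = 0.141 with the block and 0.718 without it). GRHL1 and GRHL2, the grainyhead factors that maintain epithelial gene expression, differed by -0.03 and -0.04, with 95% intervals of -0.26 to 0.20 and -0.30 to 0.22.

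ESRP1, the splicing factor that keeps the epithelial isoforms of adhesion genes, had the largest lower value of the set. It read 12.04, 12.29 and 11.89 in control cells and 11.41, 11.92 and 11.57 in siGNE cells. It was lower in each pair (-0.62, -0.37 and -0.31), although siGNE array 2 was just above control array 3. The difference of -0.44 (SE 0.10, 95% interval -0.70 to -0.17) corresponds to 74.0% of the control level and did not pass in limma (adjusted p = 0.0629 with the block, 0.348 without it). Its second probe set gave -0.39 (limma adjusted p = 0.0647), with -0.52, -0.33 and -0.31 in the pairs. ESRP1 passed in limma with the block when genes with a mean under 6 were left out (adjusted p = 0.0369), with a trended variance (0.0295), or with a fit on 1 mean value per gene (0.0345). It did not pass in limma with quantile normalization (adjusted p = 0.0598), median centring (0.0581), a robust variance (0.0673), no filter (0.251) or any pair left out.

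In the adherens junction, the cadherin genes CDH1 and CDH3 were slightly higher in siGNE cells on the probe sets used, without passing. E-cadherin (CDH1), the main adhesion receptor of epithelia, read 13.20, 13.12 and 13.27 in control cells and 13.37, 13.21 and 13.32 in siGNE cells. The arrays of both groups overlapped, and the difference was 0.10 (95% interval -0.12 to 0.32). A second CDH1 probe set, with a mean of 8.89, gave 0.09 from -0.20, 0.25 and 0.21 in the pairs. P-cadherin (CDH3) read 10.38, 9.98 and 10.55 against 10.60, 10.29 and 10.74 and was higher in every pair by 0.19 to 0.32 (difference 0.24, limma adjusted p = 0.133 with the block). The cadherin gene CDH2, from the further list described at the end, was mixed, with -0.07, -0.21 and 0.11 in the pairs (difference -0.05).

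The catenins link cadherins to actin. Alpha-catenin (CTNNA1) differed by 0.23 (limma adjusted p = 0.192 with the block), and its 3 other tested probe sets gave 0.36, 0.29 and 0.26, also without passing. Beta-catenin (CTNNB1), which also carries Wnt signals to the nucleus, read 13.16, 13.09 and 13.59 in control cells and 13.10, 12.96 and 13.49 in siGNE cells (difference -0.09, 95% interval -0.31 to 0.12). A weaker CTNNB1 probe set, with a mean of 6.42, gave -0.91 from -1.92, -0.08 and -0.72 in the pairs (limma adjusted p = 0.162 with the block). Another, with a mean of 5.94, gave -0.14 from 0.59, -0.78 and -0.22 in the pairs (limma adjusted p = 0.759 with the block). Averaging all CTNNB1 probe sets gave -0.38 and passed in limma with the block (adjusted p = 0.0290). None of these probe sets passed alone, and the strongest one gave only the -0.09 above.

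NECTIN2, an immunoglobulin-like adhesion protein that meets the actin binder afadin, read 10.13, 10.09 and 9.68 in control cells and 9.64, 9.71 and 9.54 in siGNE cells. It was lower in every pair while the groups overlapped, since control array 3 lay among the siGNE arrays (difference -0.34, limma adjusted p = 0.104 with the block). Its probe sets disagreed. One gave -0.44, with -0.44, -0.47 and -0.42 in the pairs, and passed in limma with the block (adjusted p = 0.0435, and 0.471 without it), another gave -0.50 (adjusted p = 0.0662), and one gave 0.21 (adjusted p = 0.178).

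Of the 7 tested desmosomal genes 3 were higher and 2 lower in all 3 pairs, beside 27.0% and 30.9% of all tested genes. In limma with the block 0 passed, where 4.11% of all tested genes were called higher and 5.79% lower. At an unadjusted p under 0.05 there was 1, in the lower direction, beside 13.7% higher and 18.8% lower of all tested genes. On the probe sets used, the cadherins DSC2 and DSG2 and the plakin desmoplakin (DSP), which ties the desmosome to keratin, were higher in all 3 pairs. DSC2 read 9.12, 9.46 and 9.44 in control cells and 9.82, 9.72 and 9.56 in siGNE cells, without overlap, and differed by 0.36 (limma adjusted p = 0.159 with the block), mostly from 0.70 in pair 1. Without pair 1 the DSC2 difference was 0.19. Its other tested probe sets gave 0.18 and 0.07, mixed in direction between pairs. DSG2 read 11.64, 11.37 and 11.62 against 11.78, 11.61 and 11.75 (difference 0.17), and DSP lay between 10.83 and 10.99 in control cells, below all siGNE arrays, with 0.03, 0.09 and 0.30 in the pairs (difference 0.14).

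Plakophilins, the arm-repeat proteins that gather desmosomal cadherins into plaques, were lower or mixed. PKP3 read 10.56, 10.50 and 10.58 in control cells and 10.16, 10.06 and 10.40 in siGNE cells, and was the only one of the 32 tested genes with all siGNE arrays below all control arrays. Its difference was -0.34 (SE 0.10, limma adjusted p = 0.0884 with the block, 0.316 without it), and its other probe set gave -0.35 (adjusted p = 0.0927). PKP4, which occurs in adherens junctions as well, differed by -0.23 (limma adjusted p = 0.222 with the block). Other PKP4 probe sets gave -0.42 (limma adjusted p = 0.0511) and -0.56, the latter passing with the block (adjusted p = 0.0430, and 0.685 without it). PKP2 differed by -0.46, -0.03 and 0.10 in the pairs. Plakoglobin (JUP), the catenin shared by both junction types, differed by 0.21, -0.03 and -0.07, a mean of 0.03 with a 95% interval of -0.22 to 0.29.

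At the cell surface, EPCAM, an adhesion protein that steadies claudins, read 14.89, 14.80 and 14.74 in control cells and 15.05, 14.88 and 14.76 in siGNE cells. These values are near the top of the scale, and the difference was 0.09 (95% interval -0.13 to 0.31). ST14 (matriptase), a membrane protease that acts on EPCAM and other junction proteins, differed by 0.15, -0.26 and 0.11 in the pairs, a mean of 0.00 with a 95% interval of -0.30 to 0.31, which turned to -0.0068 with median centring.

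For many junction genes the pairs differed from each other more than siGNE differed from control. The range of the 3 pair means exceeded the size of the siRNA difference for 24 of the 32 tested genes (75.0%), beside 71.1% of all tested genes, and its median was 0.24 beside 0.35. CLDN2 had the widest range, 1.25, with pair 3 highest and pair 1 lowest in both groups. CLDN3, CLDN4 and MARVELD3 followed CLDN23 (0.83) with 0.63, 0.54 and 0.54. At the other end, CRB3 and PARD3 had ranges of 0.05, DSP of 0.06 and CLDN1 of 0.09.

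**Figure D4:**
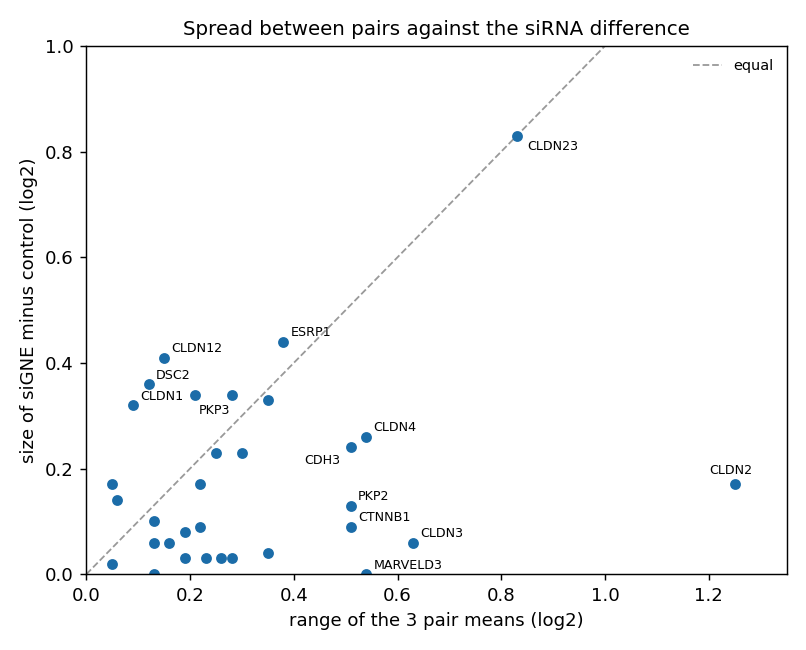
Size of the difference between siGNE and control (y axis, log2) against the range of the 3 pair means (x axis, log2) for the 32 tested junction genes. Points under the dashed line of equality vary more between pairs than between siGNE and control: CLDN2 stands at 1.25 and 0.17, CLDN23 at 0.83 on both axes, and CLDN12 above the line at 0.15 and 0.41.

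Most junction genes with more than 1 probe set gave the same sign. There were 64 tested probe sets for the 32 genes. Of the 32 that did not represent their gene, belonging to 21 genes, 24 had the same sign as the one used and 8 the opposite sign, at most 0.21 in size. In limma with the block 1 of the 64 was called higher, that of CLDN23, and 2 were called lower, those of NECTIN2 and PKP4 given above, beside 4.13% and 5.35% of all 22085 tested probe sets. Those of NECTIN2 and PKP4 were singled out once their values were known.

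Further junction genes outside the set were taken from a list of 57, of which 52 had a probe set and 32 could be tested. Of these, 1 rose and 3 fell in limma with the replicate block, beside 4.11% and 5.79% of all tested genes, and 0 passed without it. At an unadjusted p under 0.05, 4 were higher and 7 lower with the block (13.7% and 18.8% of all tested genes), and 4 were so without it (16.3%). Their median difference was -0.03 and the median size 0.23.

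CLDN11, a claudin known from myelin and the testis, had the largest difference of all junction genes tested. It read 7.23, 7.75 and 7.35 in control cells and 4.91, 6.39 and 6.21 in siGNE cells, all siGNE values being lower, with array 1 lowest. CLDN11 fell by 1.60 (SE 0.25), to 32.9% of control, in limma with the block (adjusted p = 0.0344, and 0.168 without it). The pairs gave -2.31, -1.36 and -1.14. Both other CLDN11 probe sets were at background.

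CTNNAL1, which encodes alpha-catulin, a relative of alpha-catenin, read 11.07, 10.95 and 10.60 in control cells, and the pairs differed by -0.87, -0.42 and -0.60. The groups did not overlap, and CTNNAL1 fell by 0.63 in limma with the block (adjusted p = 0.0438, and 0.232 without it). It differs in direction from CTNNA1, which stood at 0.23 without passing, and the difference between the 2 genes was not tested.

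Periplakin (PPL) and envoplakin (EVPL), plakins that pair with each other beneath the membrane of stratified epithelia and associate with desmosomes, moved in opposite directions. PPL read 8.90, 8.95 and 8.77 in control cells and 9.59, 9.41 and 9.15 in siGNE cells and rose by 0.51, which is 1.42-fold, with no overlap (limma adjusted p = 0.0481 with the block, 0.218 without it). EVPL read 6.88, 7.40 and 7.82 against 6.48, 6.74 and 7.41, where the groups overlapped but each siGNE array was below its partner, and fell by 0.49 in limma with the block (adjusted p = 0.0492, and 0.577 without it). Both lie close to the limit, and with a robust variance neither passed in limma (adjusted p = 0.0519 and 0.0532). EVPL did not pass in limma with quantile normalization (adjusted p = 0.0579) or a trended variance (0.0501) either.

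**Figure D5:**
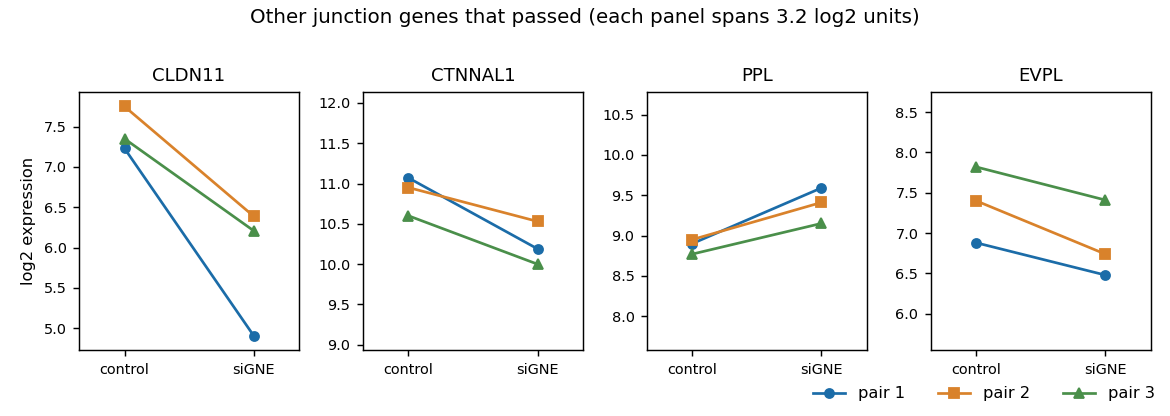
Log2 expression (y axis) of the 4 further junction genes that passed in limma with the replicate block, on control and siGNE arrays, with a line joining the arrays of each pair. From control to siGNE, CLDN11 goes by -2.31, -1.36 and -1.14 in pairs 1 to 3, CTNNAL1 by -0.87, -0.42 and -0.60, EVPL by -0.40, -0.66 and -0.41, and PPL by 0.69, 0.46 and 0.38.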

How the data were processed

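Gene expression was measured on 6 arrays of Capan-1 cells. The authors deposited log2 values for 54675 probe sets, made with GCRMA per the submitters' processing notes; the chip definition used is not given in the sources used here. GCRMA models background, so differences near background can be understated. No re-normalization was applied, and arrays have no read depth: their number limits the precision.

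Gene names came from the platform's annotation and were updated by gene identifier (41043 of 41097 single-gene probe sets matched; 1801 had several genes and 11777 none). Each gene took its probe set with the highest mean, cross-hybridising ones (_x_at) only where no other existed. limma (version 3.58.1, R 4.3.3) was fitted to the 22085 probe sets with a mean above 4, without 62 control probe sets, siGNE minus control, with Benjamini-Hochberg adjustment over all of them and a call at an adjusted p under 0.05. The pair number was a block (2 residual degrees of freedom); the fit without it has 4. The numbers come from the titles, and deviations from group means correlated at 0.58, 0.71 and 0.83 between same-numbered arrays and at -0.64 to 0.17 otherwise. The code was tested on simulated data. All 39 listed genes, GNE and the passing genes of the further list are named; other names were chosen after their values were seen. The genes, lists and tests were chosen with earlier results of these data known. Promoter letters came from RefSeq. Alternatives were another filter, floor, normalization, variance, probe set choice or threshold, no block, and leaving out a pair.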

Additional observations from a re-analysis of the deposited data

How the results depend on the processing

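Calls depended on the fit. The 1 higher junction call (0 lower) became 0 higher without the replicate block, with no filter on low values and with the second probe set (3, 8 and 5 in limma at an unadjusted p under 0.05). It became 2 higher and 1 lower with a mean above 6 and with a trended variance, 2 higher and 2 lower at an adjusted p under 0.1, and 2 lower with the mean of all probe sets. For the further junction genes, 1 higher and 3 lower became 0 and 0 without the block and without the filter, 2 higher with a mean above 6, quantile normalization, a trended variance or an adjusted p under 0.1, 0 higher with a robust variance, and 5 lower with the second probe set. All tested genes, 441 higher and 621 lower, became 3 and 0 without the block in limma (628 and 1117 at an unadjusted p under 0.05), 0 and 0 without the filter (1745 and 1927 at an unadjusted p under 0.05), 693 and 1067 with a mean above 6, 713 and 983 with a trended variance, and 997 and 1428 at an adjusted p under 0.1. Leaving out any pair gave 0 calls in each of these counts, with 1 residual degree of freedom, where 944 to 1128 genes were higher and 1427 to 1572 lower at an unadjusted p under 0.05 in limma. GNE stayed at -1.88 without the block or the filter but did not pass (limma adjusted p 0.131 and 0.265), and ran from -2.17 to -1.45 with a pair left out, also without passing. Apart from the construction of the smaller fits, the cause was not tested.

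Of 501 values of 37 genes under 14 alternatives, 438 kept direction and side of the threshold and 22 changed sign, all of them in genes that did not pass. With median centring MARVELD3 became -0.0052 and ST14 -0.0068, and with the mean of all probe sets MARVELD3 became -0.076. With the second probe set MARVELD3 became -0.18, OCLN -0.013, MARVELD2 -0.0090, TJP1 0.020, PARD3 -0.14 and ST14 -0.010. With a pair left out JUP ran from -0.051 to 0.088, PKP2 from -0.25 to 0.034, CLDN3 from -0.18 to 0.15, OCLN from -0.039 to 0.13, MARVELD3 from -0.15 to 0.18, TJP3 from -0.20 to 0.096, CRB3 from -0.022 to 0.074, ST14 from -0.074 to 0.13, GRHL1 from -0.075 to 0.013 and GRHL2 from -0.11 to 0.048. The median difference of the junction genes stayed between 0.010 and 0.076 with a pair left out, and was -0.002 with the second probe set.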

Other observations

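Among the further junction genes, secondary probe sets gave calls that the representative ones did not. They were singled out once their values were known. For PRKCI, the atypical protein kinase C of the PAR polarity complex, the probe set with the highest mean gave -0.40 (limma adjusted p = 0.121 with the replicate block), while a weaker one with a mean of 5.32 fell by 0.75 (adjusted p = 0.0463, and 0.658 without the block). One more PRKCI probe set, with a mean of 9.47, gave -0.57, lower in every pair, and did not pass (limma adjusted p = 0.051 with the block). For symplekin (SYMPK), found at tight junctions and in the nucleus, the values were -0.27 (adjusted p = 0.108) and, on a probe set with a mean of 5.94, a fall of 0.48 (adjusted p = 0.0386, and 0.270 without the block). For PERP, a desmosomal membrane protein, the representative value was -0.02, while a probe set with a mean of 4.57, near background, fell by 0.70 (limma adjusted p = 0.0269 with the block, and 0.148 without it). PARD6B, a partner of PARD3 and PRKCI, was higher in every pair without overlap between groups (difference 0.41) and did not pass in limma (adjusted p = 0.0518 with the block, and 0.328 without it).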
